A study of Homo sapiens with 6 samples.

Results

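The genes described are PCK2, PC, GOT1, GOT2, GPT2, GLUD1, GLUL and FBP1, the enzymes by which glutamine, glutamate, aspartate, alanine and pyruvate feed the citric acid cycle and by which carbon leaves it toward phosphoenolpyruvate and fructose phosphate. They were taken by symbol from the deposited expression table, and all 8 symbols were found once among its 14987 genes. The table comes from messenger RNA sequencing of HCT116, an established human colorectal cancer cell line, in 6 libraries. The study asks what YAP, a transcriptional coactivator held back by the Hippo kinases, contributes to gene expression when glucose is withdrawn. The deprived libraries were made after 6 h without glucose, 1 each from the lines shYAP1, shYAP3 and NC, and 1 library of each line came from control medium. The lines shYAP1 and shYAP3 carry 2 different constructs against YAP and are labelled YAP knockdown, and NC is labelled wild type. The labels do not say whether a line is a clone or a pool, nor what vector or promoter drives a construct, and they name no separate cultures, so p-values measure only the spread between these libraries.

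Gluconeogenesis runs glycolysis backward past its irreversible steps, and in liver and kidney it ends in free glucose. PC (pyruvate carboxylase) makes oxaloacetate from pyruvate in mitochondria, and PCK2, the mitochondrial phosphoenolpyruvate carboxykinase, turns oxaloacetate into phosphoenolpyruvate, while FBP1 (fructose bisphosphatase) acts near the end of the route. A cell with PCK2 but no FBP1 can carry carbon only part of the way, past phosphoenolpyruvate, glycerate and triose phosphates to fructose bisphosphate. Aminotransferases move amino groups between glutamate and oxoacids: GOT1 in the cytosol and GOT2 in mitochondria interconvert aspartate and oxaloacetate, and GPT2 in mitochondria interconverts alanine and pyruvate. GLUD1, glutamate dehydrogenase, releases 2-oxoglutarate from glutamate, and GLUL, glutamine synthetase, runs in the other direction and makes glutamine. PCK2 is a known target of ATF4, which drives transcription when the integrated stress response is active.

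The listed reads numbered 16912634 to 19132907 in the deprived and 18512413 to 22161075 in the control libraries, and the deposited values are normalized so that 1 read stands for 0.0532 to 0.0693 in the deprived and 0.0406 to 0.0454 in the control libraries. YAP1, the target of the constructs, stood at 20.3 in shYAP1 and 18.2 in shYAP3 cells against 154 in NC cells after deprivation, and at 35.7 and 38.2 against 188 in control medium. The shYAP3 deprived library stood apart by transcript length: its median deviation from the gene mean on the log2 scale was 0.43 in the 10% of genes with the shortest transcripts and −0.29 in the 10% with the longest, whereas in the other libraries these medians lay between −0.18 and 0.14. Whether this pattern moves the results was tested by leaving the library out and by removing length and GC trends, and is given where it changes a call. The epithelial markers EPCAM, KRT8, KRT18 and CDH1 stood at 55.1 or more in every library, but LGR5 was at 0 to 0.088 and VIL1 at 1.12 to 3.72. The epithelial markers (8 of 9 genes listed) summed to 4325 to 5230 in deprived against 2588 to 3717 in control libraries, with EPCAM (log2 0.52), KRT8 (0.65) and KRT18 (0.62) higher and CDX2 lower (−0.81) by limma, adjusted p from 0.0077 to 0.033, and with KRT8 as low as −0.01 over the alternatives. The marker lists of fibroblasts (3 of 8 genes listed), leukocytes (4 of 7), endothelium (2 of 4) and liver and kidney cells (3 of 7) each took at most 0.00151% of the reads of any library. Their summed values in deprived against control libraries were 3.05 to 6.33 against 8.14 to 10.3 for fibroblasts, where COL1A1 made up nearly all, and 8.19 to 16.2 against 5.19 to 9.29 for leukocytes, where CD68 did. They were 0.347 to 0.697 against 0.5 to 1.01 for endothelium and 2.84 to 4.12 against 4.36 to 5.19 for liver and kidney cells, and their part in the results was not tested.

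The promoters of the genes that passed the test of deprivation, PCK2 and GOT1, are shown with that of GOT2, the mitochondrial counterpart of GOT1, because the composite element bound by ATF4 with C/EBP partners was searched in them. Each run holds the 250 bases before the RefSeq transcription start, read 5′ to 3′ on the strand of the gene, in the build GRCh38.p14, which is not the build hg19 named for the study. They lie at chr14:24094061-24094310 on the plus strand for PCK2, chr10:99430625-99430874 on the minus strand for GOT1 and chr16:58734317-58734566 on the minus strand for GOT2. Capitals mark a match to the composite element.
PCK2: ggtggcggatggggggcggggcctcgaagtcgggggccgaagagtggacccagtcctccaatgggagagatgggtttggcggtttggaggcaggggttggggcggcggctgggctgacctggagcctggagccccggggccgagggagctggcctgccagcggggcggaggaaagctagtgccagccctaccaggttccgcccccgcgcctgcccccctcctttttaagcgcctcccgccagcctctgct
GOT1: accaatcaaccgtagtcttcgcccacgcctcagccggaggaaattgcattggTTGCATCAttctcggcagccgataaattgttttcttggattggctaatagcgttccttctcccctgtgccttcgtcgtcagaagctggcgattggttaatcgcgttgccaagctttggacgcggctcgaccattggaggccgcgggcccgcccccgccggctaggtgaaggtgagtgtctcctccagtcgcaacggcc
GOT2: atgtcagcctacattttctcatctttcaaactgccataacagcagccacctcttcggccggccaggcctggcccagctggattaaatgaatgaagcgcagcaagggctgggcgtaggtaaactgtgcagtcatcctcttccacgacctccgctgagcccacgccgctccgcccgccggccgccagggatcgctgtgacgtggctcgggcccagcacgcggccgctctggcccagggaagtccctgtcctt
The element was searched as TGATGNAA on both strands in windows from 250 bases before to 50 after each start, which may overlap where a gene has several starts. It was found in 1270 of 35116 windows, 3.62%. Among 10 windows of 7 of the genes it was found in 1, that of GOT1, as TGATGCAA on the opposite strand, 198 to 191 bases before the start. Of 13 windows of the stress response genes ATF4, DDIT3, ATF3, TRIB3, CHAC1, SESN2 and CEBPB, it was found in 2, those of ATF3 and CHAC1. GGAATG, the core bound by TEAD factors, through which YAP acts, was found in 14.0% of all windows and in 0 of the 10. GPT2 had no window.

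Glucose deprivation raised PCK2 and GOT1 in all 3 lines, and PCK2 had the largest change of the 8 genes. PCK2 (ENSG00000100889) stood at 51.5 in shYAP1, 78.1 in shYAP3 and 76.5 in NC cells after deprivation, against 14.7, 12.8 and 12.4 in control medium. Every deprived library lay far above every control library, and among the deprived libraries shYAP1 was the low one. The means were 68.7 ± 15 after deprivation and 13.3 ± 1.24 in control medium (SD, n = 3 each). The limma log2 fold change was 2.26 (SE 0.19), or 4.80-fold, with an adjusted p of 0.00018. It ranked 31 among the 12263 genes tested, on the scale log2(value + 1), which understates changes of low genes.

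**Figure D1:**
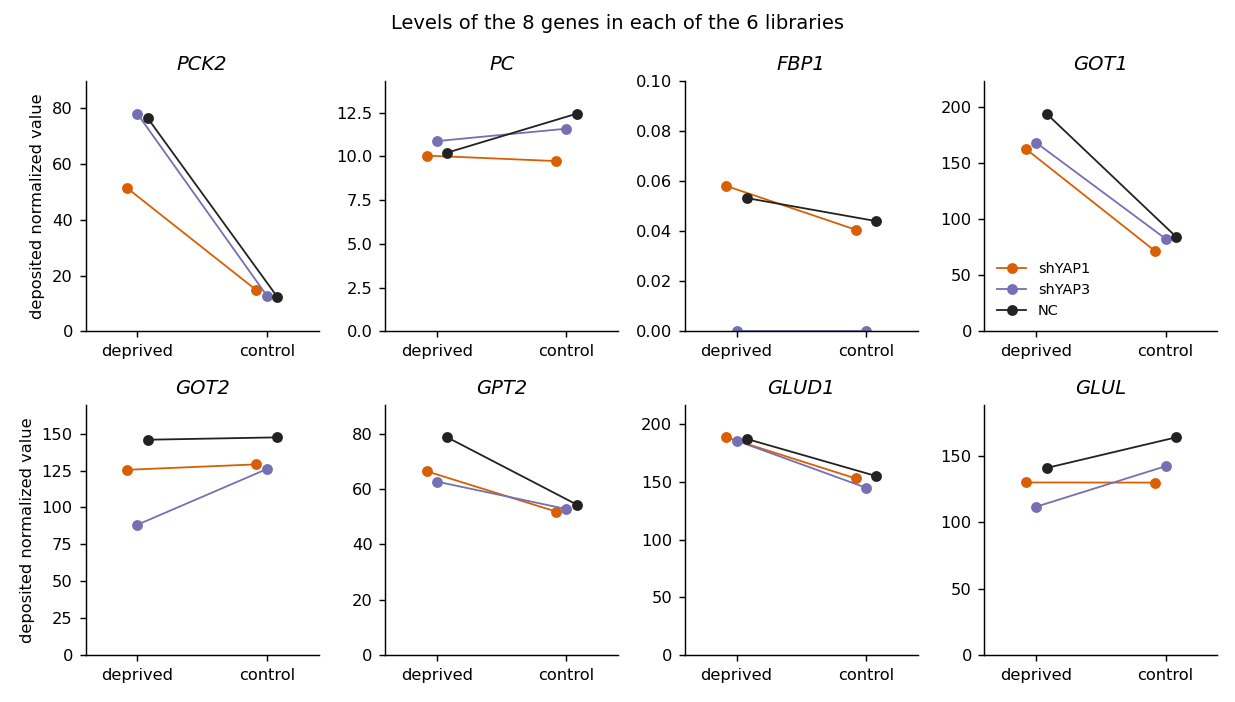
Deposited normalized value (vertical axes, from 0, different for each gene) of the 8 genes in the deprived (left) and control (right) library of shYAP1, shYAP3 and NC cells, with 1 line per cell line. PCK2 and GOT1 are higher in all 3 deprived libraries, GOT2 is lowest in the shYAP3 deprived library (88.2), and FBP1 is at 0.0581 or less throughout.

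The size of the PCK2 response differed between the lines by more than counting error. It was 3.49-fold in shYAP1 (95% interval 3.09 to 3.96), 6.10-fold in shYAP3 (5.35 to 6.97) and 6.17-fold in NC cells (5.42 to 7.03). These intervals are exact binomial ones on the split of the reads between media and cover counting error only, since each line gave 1 library per medium. The interval of shYAP1 did not reach those of the other lines, which overlapped. Scaled to listed reads, the rise was 2.95-fold in shYAP1, 4.37-fold in shYAP3 and 5.37-fold in NC cells. The reads behind PCK2 numbered 886, 1127 and 1438 after deprivation against 363, 282 and 282 in control medium, in shYAP1, shYAP3 and NC cells. In bulk RNA, a change in the amount per cell and a change in the share of cells that express a gene cannot be told apart.

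The other ends of the route did not pass. PC (ENSG00000173599) stood at 10.05 in shYAP1, 10.9 in shYAP3 and 10.2 in NC cells after deprivation, against 9.74, 11.6 and 12.4 in control medium. The groups overlapped, with a log2 fold change of −0.10 (95% interval −0.44 to 0.24, limma adjusted p = 0.62). With length and GC trends removed it was 0.13, which did not pass either. FBP1 (ENSG00000165140) had 1 read in each library of shYAP1 and NC cells and 0 reads in both libraries of shYAP3 cells. All 6 lay under the 3 reads that a count of 0 allows, worth 0.122 to 0.208, so no fold change is given and FBP1 was not tested. FBP2, its muscle paralog, stood at 0 to 0.0581 after deprivation against 0.0454 to 0.088 in control medium. PCK1, the cytosolic carboxykinase, and G6PC, the glucose-6-phosphatase of liver, were not analysed here. The ubiquitous phosphatase G6PC3 (log2 0.23, limma adjusted p = 0.21) and SLC37A4, the glucose-6-phosphate carrier of the reticulum (log2 0.13, limma adjusted p = 0.49), did not pass, but SLC37A4 did in 1 of 11 other settings, with values from −0.17 to 0.50 over all alternatives.

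Of GOT1, GOT2 and GPT2, only GOT1 passed. GOT1 (ENSG00000120053) stood at 162 in shYAP1, 168 in shYAP3 and 194 in NC cells after deprivation, against 71.2, 82.3 and 84.2 in control medium. The deprived libraries all lay above the control ones by a wide gap. The means were 175 ± 16.8 after deprivation and 79.2 ± 6.99 in control medium (SD, n = 3 each). The limma log2 fold change was 1.13 (SE 0.13), or 2.19-fold, with an adjusted p of 0.00099. By line the rise was 2.28-fold in shYAP1 (95% counting interval 2.15 to 2.42), 2.04-fold in shYAP3 (1.92 to 2.17) and 2.30-fold in NC cells (2.18 to 2.44). On the deposited scale the interval of shYAP1 overlapped those of both other lines, and those of shYAP3 and NC did not meet. Scaled to listed reads, the rise was 1.92-fold in shYAP1, 1.46-fold in shYAP3 and 2.00-fold in NC cells. The distance between lines thus depends on the scaling.

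GOT2 (ENSG00000125166), the mitochondrial isoenzyme, stood at 125 in shYAP1, 88.2 in shYAP3 and 146 in NC cells after deprivation, against 129, 126 and 147 in control medium. The shYAP3 deprived library was low, and the others differed little between media within a line. The fold was 0.971 in shYAP1 (95% counting interval 0.919 to 1.03), 0.701 in shYAP3 (0.655 to 0.749) and 0.989 in NC cells (0.940 to 1.04). Scaled to listed reads, it was 0.819 in shYAP1, 0.503 in shYAP3 and 0.861 in NC cells. GOT2 did not pass (log2 −0.19, SE 0.16, limma adjusted p = 0.39). GPT2 (ENSG00000166123) stood at 66.5 in shYAP1, 62.7 in shYAP3 and 78.8 in NC cells after deprivation, against 51.9, 52.8 and 54.4 in control medium. The groups did not overlap, but GPT2 missed the threshold (log2 0.37, SE 0.13, 1.30-fold, limma adjusted p = 0.052). It passed with length and GC trends removed (log2 0.58, limma adjusted p = 0.0024). GPT, the cytosolic alanine aminotransferase, stood at 0.174 to 0.485 after deprivation and 0.220 to 0.446 in control medium and was below the filter.

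At the glutamine entry, neither glutamate dehydrogenase nor glutamine synthetase passed. GLUD1 (ENSG00000148672) stood at 189 in shYAP1, 186 in shYAP3 and 187 in NC cells after deprivation, against 153, 145 and 155 in control medium. The groups did not overlap and the deprived libraries were nearly alike, with means of 187 ± 1.45 after deprivation and 151 ± 5.36 in control medium (SD, n = 3 each) and by limma a log2 difference of 0.31 (SE 0.12, adjusted p = 0.084). GLUL (ENSG00000135821) stood at 130 in shYAP1, 112 in shYAP3 and 141 in NC cells after deprivation, against 129.9, 142 and 164 in control medium. Its groups overlapped, with shYAP1 at the same level in both media (log2 −0.19, SE 0.13, limma adjusted p = 0.29). GLUD2, a retrogene copy of GLUD1 with which reads can be shared, stood at 0.139 to 0.426 after deprivation and 0.122 to 0.273 in control medium. GLUD1, GLUL and GOT2 also have pseudogenes, and how reads in such copies were assigned is not given in the sources used here.

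Of the 7 genes tested, 2 passed higher and 0 lower, where 16.5% of all genes passed higher and 15.6% lower, 32.1% in either direction. All deprived libraries lay above all control libraries for 4 of the 7, PCK2, GOT1, GPT2 and GLUD1, and below them for 0. Of all genes, 26.8% lay above and 23.8% below in this way. The median log2 fold change of the 7 was 0.31, beside 0.05 over all 12263 genes. PCK2 and GOT1 passed in every one of 11 other settings and 6 fits without 1 library. The scaling matters for the smaller changes: scaled to listed reads, the median of all genes moved to −0.24 and 749 genes were higher and 3802 lower, against 2018 and 1918. On that scale GPT2 had a log2 fold change of 0.07 and GLUD1 of 0.00, which is 0.31 and 0.24 above the median of all genes, while PCK2 (1.97) and GOT1 (0.83) passed. GLUL passed lower on that scale (log2 −0.49, limma adjusted p = 0.027), 0.26 below the median. Without the shYAP3 deprived library GPT2 (log2 0.42, limma adjusted p = 0.0047) and GLUD1 (log2 0.31, limma adjusted p = 0.019) passed, and 4 of the 7 genes were higher. That fit also called more of all genes, 2871 of 12209 higher and 2432 lower, against 2018 and 1918 of 12263.

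**Figure D2:**
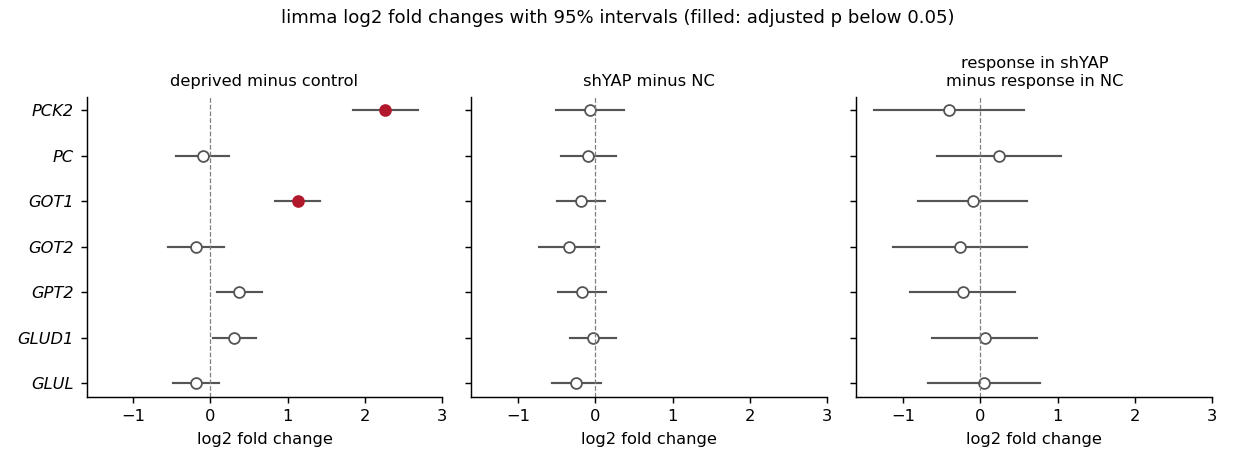
limma log2 fold change (horizontal axis) of the 7 tested genes with 95% intervals, for deprived minus control, shYAP minus NC, and the difference of the response between shYAP and NC cells; filled points passed at an adjusted p below 0.05. PCK2 (2.26) and GOT1 (1.13) passed for deprivation, and no gene passed in the other panels.

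Corrected for length, the order of the genes changed with deprivation. The value per kb of the longest coding transcript after deprivation was 61.6 ± 0.477 for GLUD1, 59.8 ± 5.73 for GOT1, 48.7 ± 11.9 for GOT2, 27.4 ± 5.97 for PCK2, 27.0 ± 3.12 for GLUL, 16.4 ± 1.98 for GPT2 and 2.48 ± 0.105 for PC (SD, n = 3). The ranges of GLUD1 and GOT1, of GOT1 and GOT2, and of PCK2 and GLUL overlapped. In control medium it was 54.5 ± 4.71 for GOT2, 49.7 ± 1.76 for GLUD1, 30.8 ± 3.65 for GLUL, 27.1 ± 2.39 for GOT1, 12.5 ± 0.303 for GPT2, 5.32 ± 0.495 for PCK2 and 2.69 ± 0.331 for PC (SD, n = 3), and only GLUL and GOT1 overlapped. PCK2 thus stood below GPT2 in control medium and above it after deprivation. The annotated principal transcript gave the same order in both media. Lengths come from GENCODE release 29, and the transcript expressed need not be the longest.

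**Figure D3:**
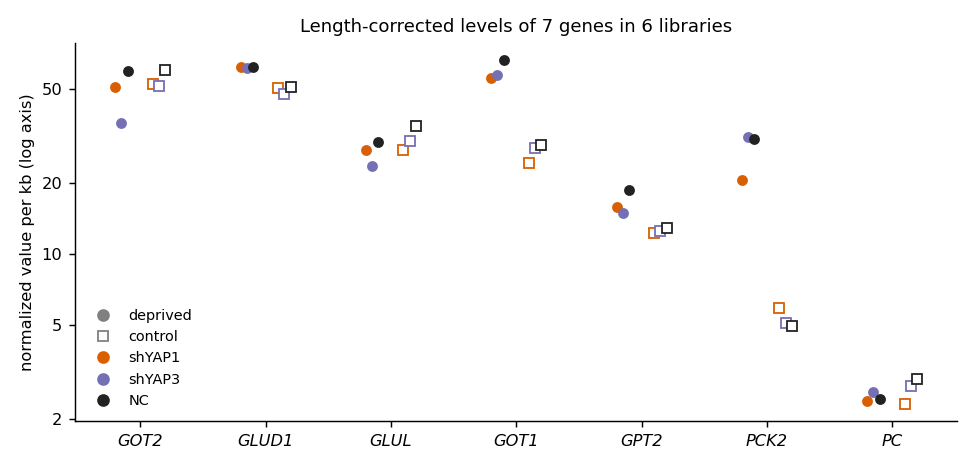
Normalized value per kb of the longest coding transcript (log axis) for 7 genes, in the order of their control level; filled circles are deprived and open squares control libraries, colored by line. The deprived PCK2 points (20.5 to 31.2) lie above all GPT2 points, and the control ones (4.95 to 5.88) lie below them.

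Ratios of reads within a library do not depend on the scaling between libraries. GOT1 took 56.4% of the reads of GOT1 and GOT2 in shYAP1, 65.6% in shYAP3 and 57.0% in NC cells after deprivation, against 35.5%, 39.5% and 36.3% in control medium. The cytosolic isoenzyme thus held the larger share of reads in every deprived library and the smaller in every control library. PCK2 had 5.12 reads per read of PC in shYAP1, 7.18 in shYAP3 and 7.49 in NC cells after deprivation, against 1.51, 1.11 and 0.997 in control medium. GPT2 took 34.6%, 41.6% and 35.05% of the reads of GPT2 and GOT2 after deprivation, in shYAP1, shYAP3 and NC cells, against 28.7%, 29.5% and 27.0% in control medium. GLUL took 40.8%, 37.6% and 42.9% of the reads of GLUL and GLUD1 after deprivation, in the same order, against 45.9%, 49.5% and 51.4% in control medium. The media did not overlap in any of these 4 ratios, each at p = 0.1 in a two-sided exact permutation test, the smallest p that 3 against 3 libraries allow, so none can pass. A ratio shows unequal change of the pair and not that either gene stayed constant.

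**Figure D4:**
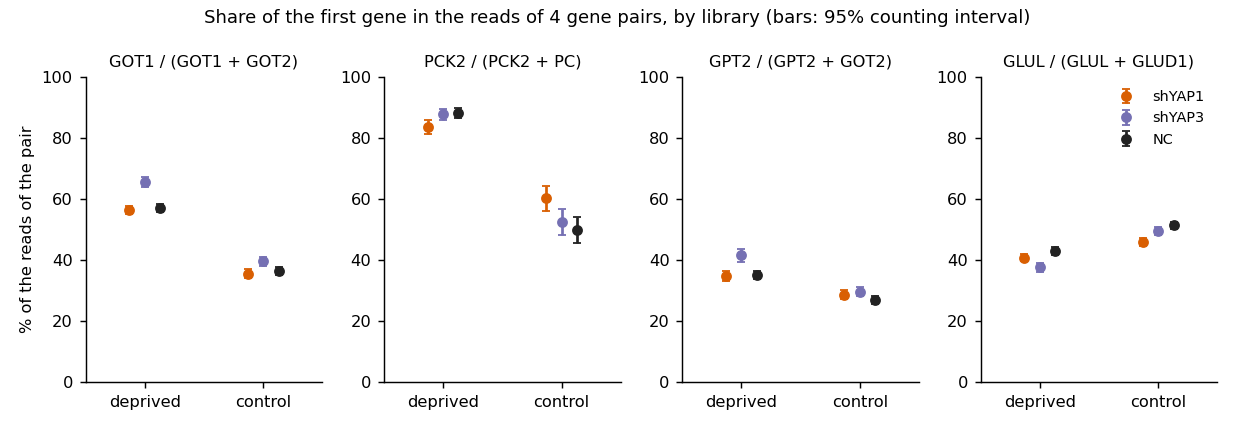
Share of the first gene in the reads of GOT1 and GOT2, PCK2 and PC, GPT2 and GOT2, and GLUL and GLUD1 (vertical axis, %), in deprived (left) and control (right) libraries of 3 lines; bars are 95% exact binomial intervals for counting error. The GOT1 share is 56.4% to 65.6% in deprived and 35.5% to 39.5% in control libraries.

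None of the 7 tested genes passed the test of YAP knockdown. Over both media the log2 fold change of shYAP against NC was −0.07 for PCK2 (95% interval −0.51 to 0.38), −0.18 for GOT1 (−0.49 to 0.13), −0.17 for GPT2 (−0.48 to 0.14) and −0.03 for GLUD1 (−0.33 to 0.27). It was −0.34 for GOT2 (−0.72 to 0.05), −0.25 for GLUL (−0.56 to 0.07) and −0.09 for PC (−0.45 to 0.27), and the limma adjusted p of the 7 lay between 0.58 and 0.94. Of the 7, GOT2 was the gene with each of its 4 shYAP values under both NC values, as for 6.04% of all genes, and 0 of the 7 had all of them over the NC values, as for 4.83%. GOT2 stood at 125 and 88.2 against 146 after deprivation and at 129 and 126 against 147 in control medium. Only YAP1 passed among all 12263 genes, 0.00815% of them, with 898 genes at an unadjusted p below 0.05, and edgeR on recovered reads also called 1. These intervals do not show that the genes are alike in shYAP and NC cells. The fit counted libraries of the same line as separate, though knockdown differs only between lines. The intervals may thus understate the spread between lines. With a single NC line, knockdown cannot be told apart from other differences between that line and the shYAP lines.

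The test of whether the response depends on YAP, the response in shYAP minus that in NC cells, passed for 0 of the 7 genes and for 0 of all genes, 0% of them, by limma and by edgeR on recovered reads. At an unadjusted p below 0.05 there were 111 genes by limma and 119 by edgeR, and none of the 7 genes was among the 111. The log2 difference was −0.40 for PCK2 (95% interval −1.37 to 0.57), −0.26 for GOT2 (−1.12 to 0.60), −0.23 for GPT2 (−0.91 to 0.45), −0.10 for GOT1 (−0.80 to 0.61), 0.05 for GLUL (−0.68 to 0.77), 0.06 for GLUD1 (−0.62 to 0.73) and 0.24 for PC (−0.56 to 1.04). NC cells had 1 library in each medium and were assumed to vary like the shYAP libraries. In simulated data of this size the test found 19.8% of differences of 1 and 99% of differences of 2 on the log2 scale. The simulation placed differences only in genes with a mean value of at least 10. It gave all genes the same variation beyond counting error, with no effect of line or length. The share found in the real data may thus be lower: CTGF, at a log2 difference of −2.77, did not pass. Without the shYAP3 deprived library PCK2 passed (log2 −0.70, limma adjusted p = 0.041), in a fit that called 278 genes. Without the shYAP1 deprived library GOT2 passed (log2 −0.51, limma adjusted p = 0.036), in a fit that called 2739 genes, and PCK2 was at −0.11 (limma adjusted p = 0.76). Each of these fits compares 1 shYAP library with 1 NC library after deprivation. The shYAP lines differed from each other in both genes by more than counting error. In deprived shYAP1 cells PCK2 was 0.659 times its level in deprived shYAP3 cells (95% counting interval 0.603 to 0.720), and GOT2 was 1.42 times (1.33 to 1.53).

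Among genes that bring glutamine in, 3 of 6 tested rose and 0 fell after deprivation, with a median log2 fold change of 0.48, beside 0.05 over all genes, of which 16.5% rose. They were SLC3A2, the heavy chain shared by several amino acid exchangers (log2 1.22, limma adjusted p = 0.00067), SLC38A2, a sodium-coupled glutamine transporter (1.19, 0.0017), and SLC1A5, the neutral amino acid exchanger ASCT2 (0.58, 0.013). Of 9 other aminotransferases tested 2 rose and 1 fell (median 0.12), where 16.5% of all genes rose and 15.6% fell. PSAT1, which makes phosphoserine with glutamate as donor, rose (1.14, limma adjusted p = 0.0013), as did CCBL2, a kynurenine aminotransferase now named KYAT3, whose locus overlaps RBMXL1 so that reads may be shared (1.09, 0.0051), and ABAT, which breaks down the transmitter GABA, fell (−0.57, 0.048). Of 11 enzymes that consume glutamate or glutamine, ASNS, asparagine synthetase, rose (2.10, limma adjusted p = 0.0005) and CAD, of pyrimidine synthesis, fell (−0.79, 0.014), with a median of 0.03, and PYCR1, of proline synthesis, did not pass (0.39, 0.053).

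**Figure D5:**
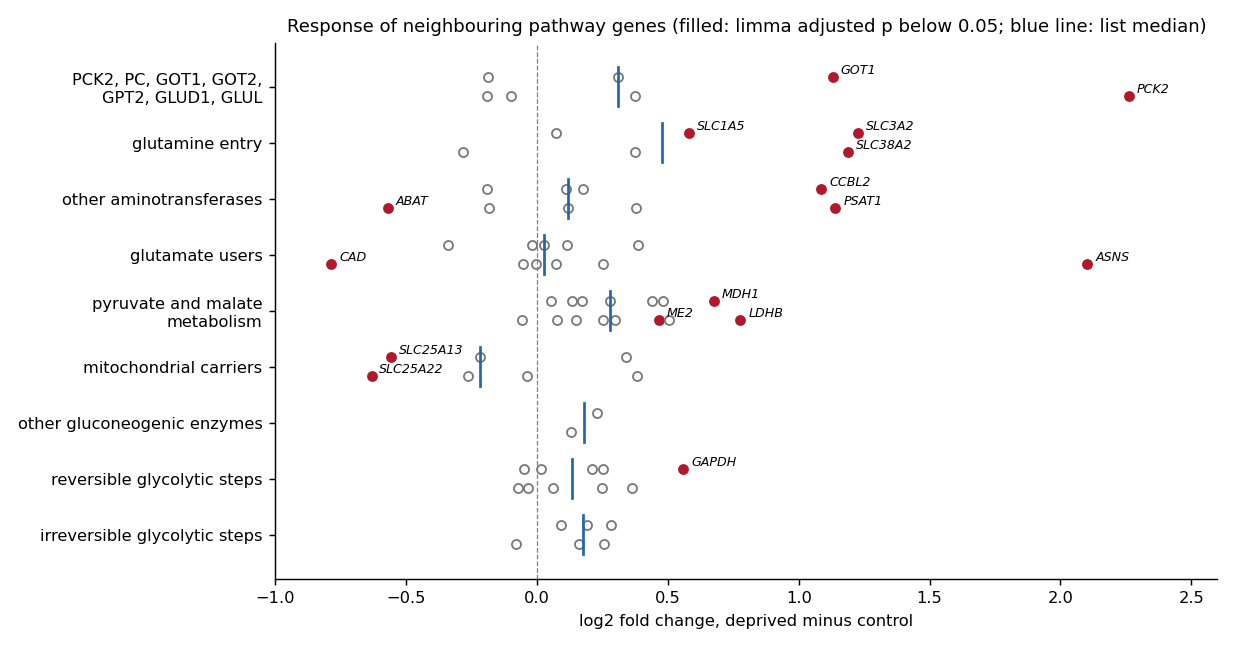
limma log2 fold change after deprivation (horizontal axis) of each tested gene in the 7 genes described and 8 neighbouring pathway lists (vertical axis); filled points passed and are named, and the blue line is the list median. PCK2 (2.26) and ASNS (2.10) lie farthest to the right, and CAD (−0.79) farthest to the left.

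Among 15 genes of pyruvate and malate metabolism, which include the mitochondrial pyruvate carriers, pyruvate dehydrogenase and its kinases, lactate dehydrogenases, malic enzymes and malate dehydrogenases, 3 rose and 0 fell (median 0.28), where 16.5% of all genes rose and 15.6% fell. They were LDHB, a lactate dehydrogenase subunit (log2 0.78, limma adjusted p = 0.031), MDH1, the cytosolic malate dehydrogenase (0.68, 0.028), and ME2, the mitochondrial malic enzyme (0.47, 0.048). MDH1 stood at 311, 477 and 248 in shYAP1, shYAP3 and NC cells after deprivation, against 227, 199 and 198 in control medium, and was highest in the library that stood apart by length. Of 7 mitochondrial carriers 0 rose and 2 fell (median −0.22), beside the same shares of all genes: SLC25A13, an aspartate and glutamate exchanger of the malate-aspartate shuttle (−0.56, limma adjusted p = 0.033), and SLC25A22, a glutamate carrier (−0.63, 0.048). Of 10 reversible glycolytic enzymes, which gluconeogenesis uses in reverse, 1 rose, GAPDH (0.56, limma adjusted p = 0.047), with a median of 0.14. Of 6 irreversible ones 0 passed (median 0.18), with HK2, a hexokinase, at 0.25 and PFKP, a phosphofructokinase, at 0.28. SLC3A2, SLC38A2, PSAT1, CCBL2 and ASNS passed in all 11 other settings and all 6 fits without 1 library. The other genes of these lists named as passing did not pass in at least 1 of the 11 settings and at least 2 of the 6 fits, with a highest limma adjusted p from 0.080 for CAD to 0.23 for ABAT. GAPDH, ABAT and ME2 passed in 5 of the 11 settings, and over all alternatives the log2 fold change went as low as 0.08 for GAPDH and 0.16 for both LDHB and ME2. HK2 and PFKP each passed in 1 of the 11 settings and 1 of the 6 fits. Scaled to listed reads, where the median of all genes was −0.24, the list medians were 0.17 for glutamine entry, −0.13 for the other aminotransferases, −0.03 for pyruvate and malate, −0.52 for the carriers, −0.27 for glutamate users and −0.16 and −0.13 for the reversible and irreversible glycolytic steps.

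The 7 genes taken as markers of the integrated stress response all rose, where 16.5% of all genes rose. This list, like the others, was chosen with earlier results of these data known. ATF4 itself rose 2.27-fold (limma adjusted p = 0.001), to 590, 638 and 636 in shYAP1, shYAP3 and NC cells after deprivation, against 279, 244 and 298 in control medium. The transcription factors DDIT3, ATF3 and CEBPB rose 49.2-, 15.9- and 2.81-fold, and SESN2, TRIB3 and CHAC1 rose 7.94-, 5.01- and 13.8-fold, with limma adjusted p of the 7 from 2.18e-06 to 0.001. PCK2, at 4.80-fold, lay within the wide range of these genes, 2.27- to 49.2-fold, and whether ATF4 raised PCK2 was not tested. Among the 5 genes whose level over the 6 libraries was most like that of PCK2, by Pearson r of log2(value + 1) among 9201 candidate genes with a mean value of at least 10, were PSIP1 (r = 0.999), ULBP1 (0.998), CCDC174 (0.997) and CEBPG (0.997). These 4 shared with PCK2 a level in the shYAP1 deprived library below that in the other deprived libraries. Choosing genes by r over these same libraries favours such a likeness, so it is no separate evidence on PCK2. CEBPG, which encodes a partner of ATF4, stood at 115, 144 and 148 in shYAP1, shYAP3 and NC cells after deprivation, against 69.5, 60.5 and 63.8 in control medium. ULBP1, a ligand of the NKG2D receptor of natural killer cells, stood at 13.8, 17.7 and 18.6 after deprivation, against 5.396, 4.27 and 4.75 in control medium. These correlations are a description over 6 libraries that fall into 2 media.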

How the data were processed

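Messenger RNA of 6 HCT116 libraries was measured. The submitters' processing notes name hg19, BWA and Bowtie2 without role or version; a counter, an annotation and a strand setting are not given in the sources used here. The authors deposited 1 normalized signal per gene and library, with a scaling not given in the sources used here, and 100% of values were whole multiples of 1 read (tolerance 0.01 read). No gene of the table is at 0 in the NC control library, whereas 535 to 942 genes are at 0 in each other library. The lists, markers and shares of all genes thus cover only genes with at least 1 read in NC control, FBP1 among them. The members and lists were chosen with earlier results of these data known. On log2(value + 1), limma 3.58.1 (R 4.3.3) was run with a trend of variance on level, over the 12263 genes that reached 1 in 2 or more libraries, with Benjamini-Hochberg adjusted p called at 0.05. Response and knockdown came from an additive model of genotype and medium, and the difference of responses from 4 group means. Named were the members, at most 3 genes per list by smallest p in the response, the stress genes, YAP1 and the 5 genes most like PCK2, of which 1 is not reported here; marker genes and genes below the filter were added after their values were seen. Alternatives were normalization, filter, pseudocount, trend, edgeR (4.0.16) on recovered reads, the line as a block and leaving out libraries; removal of length and GC trends was chosen after seeing the data. Libraries of a line share its construct per the labels' titles, and deviations of the shYAP1 libraries from their group means correlated at 0.102 over 12263 genes. In simulated data of 12263 genes the response test found 98.9% of 94 genes changed 2-fold, with 15 false calls. The changes were placed only in genes with a mean value of at least 10. All genes had the same variation beyond counting error, with no effect of line or length, so the share in the real data may be lower. Sequences are RefSeq's, and 7 of 8 genes matched a promoter.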

Additional observations from a re-analysis of the deposited data

How the results depend on the processing

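Of 336 values of the 7 tested genes and their comparisons under an alternative, 330 stayed on their side of the threshold, 6 newly passed and 0 lost a call or reversed a call. For knockdown and for the difference the main fits called 1 and 0 of all genes, so staying unpassed there says little. The alternatives are not all separate: leaving out either NC library gave the same response estimates, at 2.13 for PCK2 and 1.10 for GOT1. For the response, 3936 genes passed, against 1607 where the responses of shYAP and NC cells were averaged with equal weight, and between 1085 (without the shYAP3 control library) and 5303 (without the shYAP3 deprived library) when 1 library was left out. The number of the 7 genes passing was then 2 to 4. For knockdown, 1 gene passed, against 0 in control medium alone and 0 to 5 with 1 library left out. For the difference of the response, 0 genes passed, against 4 with the line as a replicate block and 1 to 2739 with a shYAP library left out, and 0 to 1 of the 7 genes passed in those fits. The difference could not be estimated without an NC library. The cause of these shifts was not tested. The block changed no call of the 7 genes. A group left with a single library is assumed to vary like the others. Depth limits FBP1, at 0 or 1 read, and the single NC library per medium limits every comparison with NC.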
